A study of Homo sapiens with 8 samples.

Results

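The collagen genes are the protein-coding genes whose symbol is COL, a number, A and a number, and each encodes 1 chain of a collagen. They were found by matching the identifiers of the deposited counts to GENCODE 29, and 44 of the 58302 genes in each file met the rule. RNA-seq counts came from RD cells, an established human rhabdomyosarcoma line. The control group held 4 libraries of RD cells with a scrambled shRNA (short hairpin RNA), and the shPROX1 group held 4 libraries of RD cells with a hairpin against PROX1, a homeobox transcription factor. The series design describes 4 biological replicates per group and a silencing of 75%. All libraries came from 1 cell line, and the hairpin sequence, the vector and whether cells were a pool or a clone are not given in the sources used here.

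Collagens are secreted or membrane proteins in which 3 chains wind into a triple helix. Fibrillar collagens assemble into the banded fibrils of connective tissue, type IV collagen forms the network of basement membranes, and fibril-associated collagens sit on the surface of fibrils. Skeletal muscle fibres are surrounded by a basement membrane, with type VI collagen next to it, and lie in a stroma of fibrillar collagen. The members were therefore described by class: 11 fibrillar, 6 basement membrane, 10 fibril-associated and 17 other genes.

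The libraries held 3747090 to 4865161 counts. PROX1 itself was at 18.6 ± 2.5 CPM (counts per 1000000 counts, SD, n = 4) in control and 8.91 ± 1.16 CPM in shPROX1, a log2 difference of -1.07 ± 0.15 (SE) with an edgeR adjusted p of 4.89e-06. The shPROX1 level was 47.6% of control, with a 95% interval of 38.6 to 58.9%. This fall of 52.4% in counts was smaller than the silencing of 75% in the series design, and the reason was not tested. Summed over 5 muscle lineage markers (MYOD1, MYOG, DES, CHRNA1, MYH3), the level was 1359 to 1398 CPM in control and 1138 to 1217 CPM in shPROX1. MYOG (log2 -1.32), MYH3 (-0.94) and DES (-0.18) fell, and MYOD1 (0.04) and CHRNA1 (0.01) were not called. The 6 fibroblast markers summed to 77.1 to 89.4 CPM in control and 108 to 117 CPM in shPROX1. Of these, THY1 and PDGFRB rose (log2 0.46 and 0.68), PDGFRA, DCN and LUM averaged under 1 CPM in both groups, and FAP had at most 3 counts in every library. Summed endothelial markers were at 37.8 to 52.5 and 41.5 to 45.7 CPM, nearly all from TEK, with CDH5 at 0. Epithelial markers were at 9.45 to 14.6 and 10.7 to 16.6 CPM, nearly all from KRT8. The part of these markers in the collagen values was not tested. In bulk RNA, fewer cells of a type and less RNA per cell cannot be told apart.

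Of the 44 collagen genes, 27 passed the filter on low counts and were tested with edgeR's quasi-likelihood test, with p-values adjusted by Benjamini-Hochberg over all 12392 tested genes. At an adjusted p under 0.05, 12 rose in shPROX1, 7 fell and 8 were not called. The background was wide: over all tested genes, 17.3% rose, 17.9% fell and 35.2% were called in either direction. Among the tested collagens 70.4% were called. These genes were also the more deeply counted ones, with a median level of 67.8 CPM against 34.5 CPM over all tested genes. The part of that depth in the count was not tested. Their median log2 difference was 0.05 against -0.01 over all tested genes, and the median size of the difference was 0.35 against 0.18. Every shPROX1 library lay outside the control range for 18 of the 27 (66.7%), against 32.4% of all tested genes. Of the 19 calls, 11 (57.9%) were under 1.5-fold, against 3186 of 4364 (73%) over all tested genes. COL12A1, COL24A1, COL9A3 and COL26A1 each passed 2-fold, 14.8% of the tested collagens against 2.86% of all tested genes, and COL7A1 was just short of it with a rise of 99.9%.

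**Figure D1:**
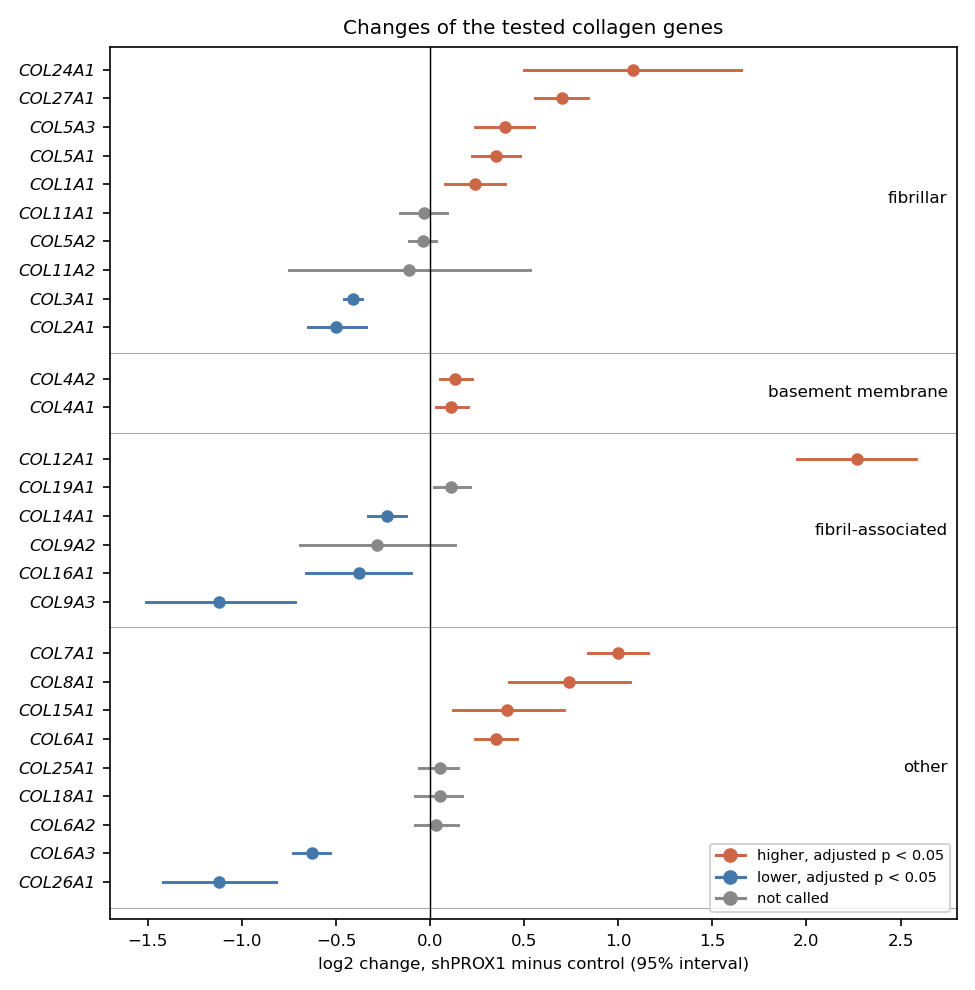
Log2 difference (shPROX1 minus control) of the 27 tested collagen genes by class, with 95% intervals from edgeR's fit, orange for genes that rose, blue for genes that fell and grey for those not called. COL12A1 stands highest at 2.27, while COL9A3 and COL26A1 are lowest at -1.12.

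Expressed per length, a single chain dominated. In control cells COL3A1, the only chain of type III collagen, was at 1960 ± 70 CPM per kilobase of its longest protein-coding transcript (SD, n = 4). COL5A2, a chain of type V collagen, followed at 281 ± 11.2, COL4A1 at 97.8 ± 2.41 and COL4A2 at 82.9 ± 1.61 CPM per kilobase. COL14A1 (49 ± 2.3), COL6A2 (48.6 ± 2.85), COL19A1 (46 ± 1.72) and COL6A1 (40.8 ± 1.51) came next. The first 3 of these neighbours did not differ beyond their spread, and their order changed when the length of all annotated exons was used (36.6, 31.2 and 33.7 CPM per kilobase). The fourth place of COL4A2 also rests on the transcript length: with all annotated exons it was at 27.9 CPM per kilobase, below these 3 genes and COL6A1 (32.4), while COL4A1 was at 43.9. COL25A1 was at 23.2 ± 1.28, and COL6A3 (19.7 ± 0.614) and COL18A1 (18.9 ± 1.19) lay within their spread of each other. With all annotated exons COL6A3 was at 10.8 and COL18A1 at 14.6 CPM per kilobase. COL1A1, the major chain of type I collagen, was at 8.21 ± 0.584 CPM per kilobase. At the bottom of the tested genes were COL11A2 (0.532), COL12A1 (0.493) and COL24A1 (0.433 CPM per kilobase).

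**Figure D2:**
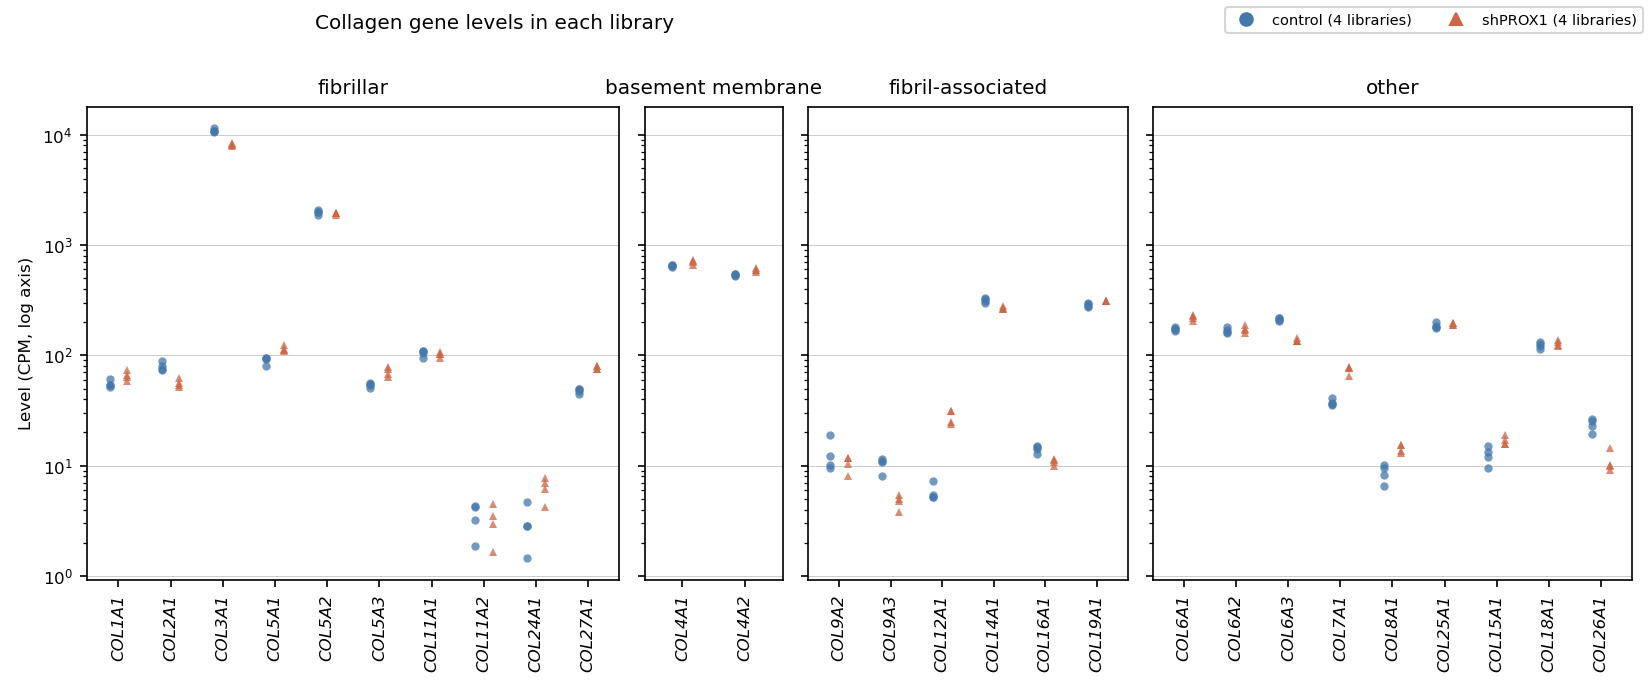
CPM of the 27 tested collagen genes in each of the 8 libraries (circles control, triangles shPROX1) on a log axis, grouped by class. COL3A1 lies above all others, between 7937 and 11428 CPM.

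Fibrillar collagens moved in both directions. Of the 10 tested fibrillar genes 5 rose, 2 fell and 3 were not called, with a median log2 difference of 0.10. That is 70% called, against 35.2% over all tested genes. COL3A1 (chromosome 2, 188974320 to 189012746, plus strand) was at 11428, 10777, 10703 and 10546 CPM in control libraries 1 to 4 and at 7937, 8215, 8098 and 8473 CPM in the shPROX1 libraries. Every shPROX1 library was below every control library. The fitted log2 difference was -0.41 ± 0.02, a 1.33-fold fall (edgeR adjusted p = 7.97e-12). COL3A1 made up 1.07 to 1.14% of all counts in control and 0.781 to 0.834% in shPROX1. It ranked first or second among all genes in each of the 8 libraries.

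COL3A1 made up most of the family's counts. Summed over the 44 genes, collagen counts were 16074 ± 475 CPM in control and 13511 ± 257 CPM in shPROX1, without overlap. Without COL3A1 the sums were 5211 ± 104 and 5330 ± 46.3 CPM, and the groups overlapped. The share of COL3A1 in all collagen counts was 67.6 ± 0.494% in control and 60.5 ± 0.553% in shPROX1. For the fibrillar class without COL3A1, the sums were 2428 ± 93.6 and 2433 ± 26.9 CPM, and the groups overlapped. With COL5A2 left out as well, the sum was 439 ± 15.9 CPM in control and 503 ± 24 CPM in shPROX1, without overlap. COL3A1 and COL5A2 are not among the 5 fibrillar genes that rose, so this choice favours a higher sum in shPROX1. The sum also includes COL1A2, at 20.5 CPM in shPROX1 library 4. No test was made on these sums.

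**Figure D3:**
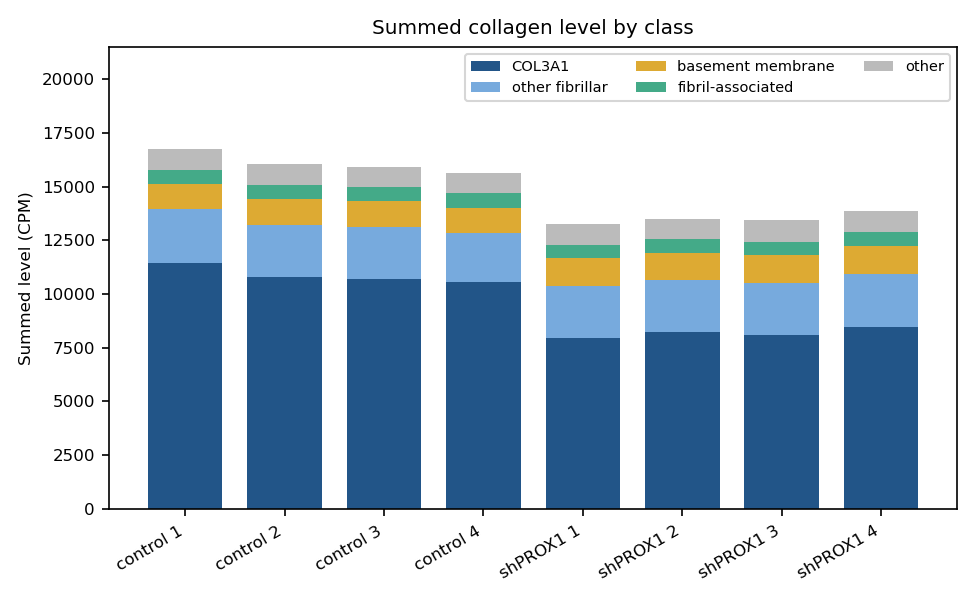
Stacked bars give the summed CPM of COL3A1, the other fibrillar genes, and the basement membrane, fibril-associated and other classes in each library. The COL3A1 segment is shorter in all 4 shPROX1 libraries, at 7937 to 8473 CPM against 10546 to 11428 CPM in control.

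COL5A2 lies 19149 bases from COL3A1 on the same chromosome, with the genes facing each other. Its libraries were at 2079, 2005, 1984 and 1887 CPM in control and 1946, 1960, 1866 and 1946 CPM in shPROX1, and the groups overlapped. The log2 difference was -0.04 ± 0.03 with a 95% interval of -0.11 to 0.03 (edgeR adjusted p = 0.331), so that a fall as large as that of COL3A1 lay outside the interval. Its level per length relative to COL3A1 was 0.143 ± 0.00258 in control and 0.185 ± 0.00575 in shPROX1.

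The other chains of type V collagen, which joins type I in heterotypic fibrils and limits their width, both rose. COL5A1 was at 92.4, 93.8, 94.3 and 80.8 CPM in control and 114, 112, 125 and 110 CPM in shPROX1. The groups did not overlap, although control library 4 lay below the other controls, and the log2 difference was 0.35 ± 0.06 (edgeR adjusted p = 1.06e-04). COL5A3 was at 54.8, 56.3, 50.1 and 54.4 CPM in control and 67.4, 63.6, 79 and 74.6 CPM in shPROX1, also without overlap, with a log2 difference of 0.40 ± 0.07 (edgeR adjusted p = 2.06e-04). Per length, COL5A1 stood at 0.0379 ± 0.00181 of COL5A2 in control and 0.05 ± 0.00396 in shPROX1, and COL5A3 at 0.0311 ± 0.00184 and 0.0424 ± 0.00498. Neither ratio overlapped between groups.

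Type I collagen, the main fibril of skin, bone and tendon, is built from COL1A1 and COL1A2 chains. COL1A1 was at 52.2, 54.3, 61 and 53.4 CPM in control and 66, 58.4, 73.6 and 63.3 CPM in shPROX1. Control library 3 lay above shPROX1 library 2, so the groups overlapped, and the log2 difference was 0.24 ± 0.08 (edgeR adjusted p = 0.0173). Without shPROX1 replicate 3 the difference was 0.18 and the adjusted p 0.0683. COL1A2 was below the filter, with 10, 2, 0 and 13 counts in control and 6, 4, 5 and 87 counts in shPROX1. A single library, shPROX1 replicate 4, held most of its counts: 20.5 CPM against 0.994 to 1.42 CPM in the other shPROX1 libraries. Across genes with at least 20 counts in a library (11127 in this one), COL1A2 was the only gene in which shPROX1 replicate 4 exceeded 3 times every other library after 1 CPM was added to each, and in each other library 0 genes did so. The mean of COL1A2 in shPROX1 was 6.07 ± 9.65 CPM with all 4 libraries and 1.25 CPM without replicate 4. Relative to COL1A1 per length, COL1A2 was at 0.0563, 0.0113, 0 and 0.0615 in control and at 0.0267, 0.0212, 0.0227 and 0.404 in shPROX1.

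**Figure D4:**
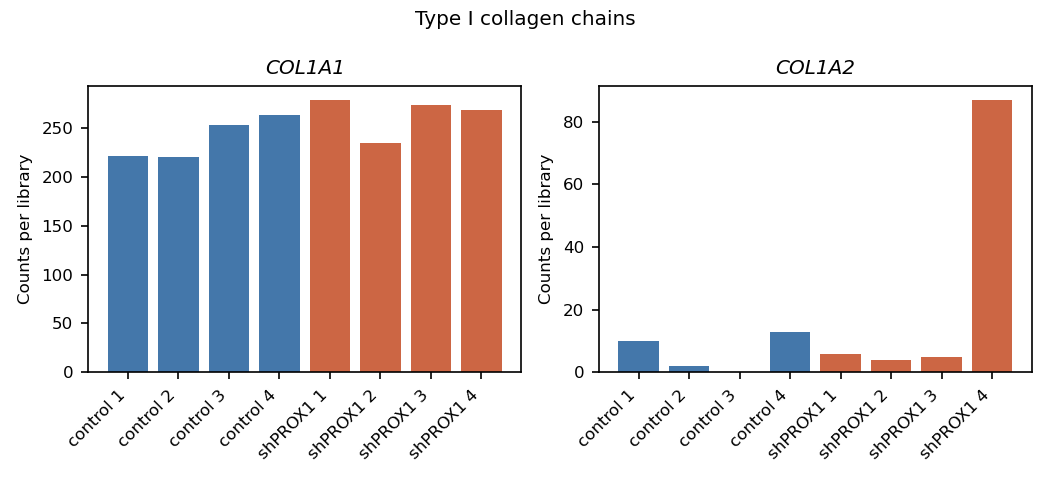
Bars give the raw counts of the type I collagen chains COL1A1 (left) and COL1A2 (right) in each library, control in blue and shPROX1 in orange, on separate axes from 0. COL1A2 has 87 counts in shPROX1 replicate 4 and at most 13 in any other library.

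Cartilage-type fibrillar collagens differed among themselves. COL2A1, the chain of type II collagen, fell: its libraries were at 88.4, 75.3, 80.3 and 73.5 CPM in control and 56.7, 54.4, 62.3 and 51.7 CPM in shPROX1. The groups were separate, with a log2 difference of -0.50 ± 0.07 (edgeR adjusted p = 1.47e-05). COL11A1, which nucleates cartilage fibrils, was at 109, 109, 104 and 94.2 CPM in control and 107, 95.6, 103 and 102 CPM in shPROX1. These groups overlapped, and the log2 difference of -0.03 had a 95% interval of -0.16 to 0.09. COL11A2 was low, at 3.42 ± 1.13 and 3.14 ± 1.18 CPM, with an interval of -0.75 to 0.53.

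COL24A1 and COL27A1, fibrillar collagens of the developing skeleton, rose. COL27A1 was at 44.9, 47.4, 49.9 and 49.9 CPM in control and 80.9, 75.3, 75.5 and 80.5 CPM in shPROX1. No library of 1 group reached the other, and the difference was 1.62-fold (log2 0.70 ± 0.07, edgeR adjusted p = 1.79e-08). COL24A1 was much lower, at 2.84, 4.69, 1.45 and 2.84 CPM in control and 6.15, 7.7, 6.99 and 4.25 CPM in shPROX1. Control library 2 lay above shPROX1 library 4, and the log2 difference of 1.08 ± 0.28 was 2.11-fold (edgeR adjusted p = 0.00416).

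Both measurable basement membrane chains rose slightly. COL4A1 and COL4A2 assemble into the common form of type IV collagen and are transcribed from a shared region in opposite directions on chromosome 13. COL4A1 (110148963 to 110307233, minus strand) was at 626, 664, 653 and 646 CPM in control and 701, 665, 727 and 709 CPM in shPROX1. COL4A2 (110305812 to 110513209, plus strand) was at 539, 548, 542 and 524 CPM in control and 572, 590, 588 and 615 CPM in shPROX1. Neither gene overlapped between groups, although shPROX1 library 2 was just above the highest control for COL4A1. The log2 differences were 0.11 ± 0.04 and 0.13 ± 0.04 (edgeR adjusted p = 0.0331 and 0.0133). The call of COL4A1 was lost without control replicate 1 (adjusted p = 0.0645), control replicate 3 (0.0593), shPROX1 replicate 1 (0.0735), shPROX1 replicate 3 (0.0819) or shPROX1 replicate 4 (0.0878), and that of COL4A2 without shPROX1 replicate 4 (0.0665). Per length, COL4A1 stood at 1.18 ± 0.0293 of COL4A2 in control and 1.16 ± 0.0535 in shPROX1, and these ratios overlapped. Their RefSeq starts lie 126 bases apart. The CCAAT box, a common promoter element, is shown in capitals in a stretch between the starts because both genes share it, at chr13:110307167-110307196, plus strand, GRCh38.p14, RefSeq. GENCODE 29 annotates these bases within an exon of COL4A1.
COL4A1 to COL4A2: gggccgagctccCCAATttgttggcgctgc

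The remaining basement membrane chains, which replace COL4A1 and COL4A2 in the kidney filter and other specialised membranes, were below the filter. COL4A5 summed to 18 counts over the control libraries and 4 over the shPROX1 libraries. COL4A3 (0 and 3), COL4A4 (3 and 0) and COL4A6 (2 and 0) were near 0. A count of 0 allows up to 3 counts, or 0.609 to 0.806 CPM depending on the library, for counting error only.

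Among fibril-associated collagens, 6 were tested, of which COL12A1 rose, 3 fell and 2 were not called. The median log2 difference of these 6 was -0.26, and 66.7% were called against 35.2% over all tested genes. COL12A1, a chain that links fibrils to the surrounding matrix in tendon and muscle, had the largest difference of any tested collagen. It was at 5.2, 5.18, 7.23 and 5.48 CPM in control and 31, 25.1, 23.9 and 31.2 CPM in shPROX1. The lowest shPROX1 library was far above the highest control. The log2 difference was 2.27 ± 0.15, a 4.82-fold rise with a 95% log2 interval of 1.95 to 2.58 (edgeR adjusted p = 5.09e-11), from 100 counts in control and 453 in shPROX1. Per length it moved from 0.493 to 2.37 CPM per kilobase.

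COL14A1, a related chain, went the other way, at 311, 331, 299 and 326 CPM in control and 262, 280, 271 and 264 CPM in shPROX1. The groups were separate (log2 -0.23 ± 0.05, edgeR adjusted p = 6.87e-04). COL9A3, a chain of the type IX collagen that coats cartilage fibrils, was at 10.9, 11.6, 11.1 and 8.12 CPM in control and 4.97, 5.46, 4.84 and 3.78 CPM in shPROX1. Again the groups did not overlap, and the fall was 2.17-fold (log2 -1.12 ± 0.19, edgeR adjusted p = 7.80e-05). Its partner COL9A2 was not called: control library 1 stood at 19.1 CPM, the other controls at 9.63 to 12.3 CPM, and the log2 difference of -0.28 had a 95% interval of -0.69 to 0.13. The third partner, COL9A1, was below the filter, with 8, 10, 12 and 7 counts in control and 1, 4, 5 and 5 in shPROX1. The ratio of COL9A2 to COL9A3 per length was 1.08 ± 0.34 in control and 1.93 ± 0.215 in shPROX1.

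COL16A1 was at 15.1, 14.1, 12.8 and 14.8 CPM in control and 11.6, 9.94, 11.3 and 10.9 CPM in shPROX1, without overlap (log2 -0.38 ± 0.14, edgeR adjusted p = 0.0323). Its call was lost without control replicate 1 (adjusted p = 0.072), control replicate 2 (0.052), control replicate 4 (0.0802), shPROX1 replicate 2 (0.0885) or shPROX1 replicate 4 (0.0617), and with DESeq2 (0.177). COL19A1, a chain expressed in differentiating muscle, was at 277, 278, 298 and 294 CPM in control and 310, 309, 311 and 313 CPM in shPROX1. Its groups did not overlap, yet the log2 difference of 0.11 (95% interval 0.02 to 0.21) missed the threshold, with an edgeR adjusted p of 0.0601. Without control replicate 3 the adjusted p was 0.0496. COL20A1 (6 counts summed over control and 4 over shPROX1), COL21A1 (0 and 1) and COL22A1 (2 and 1) were below the filter.

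The genes of type VI collagen, which forms beaded filaments around muscle fibres, separated by chain. COL6A1 was at 173, 180, 174 and 165 CPM in control and 233, 217, 203 and 229 CPM in shPROX1. COL6A2 was at 168, 159, 182 and 164 CPM in control and 158, 170, 187 and 174 CPM in shPROX1. COL6A3 was at 217, 204, 209 and 218 CPM in control and 135, 135, 145 and 134 CPM in shPROX1. The groups were separate for COL6A1 and COL6A3, in opposite directions, and overlapped for COL6A2. COL6A1 rose by 0.35 ± 0.05 on the log2 scale (edgeR adjusted p = 1.60e-05) and COL6A3 fell by 0.63 on that scale, 1.55-fold (adjusted p = 1.01e-09). COL6A2 differed by 0.03, with a 95% interval of -0.08 to 0.15. COL6A1 and COL6A2 lie in tandem on chromosome 21, 93046 bases apart, while COL6A3 is on chromosome 2. Per length, COL6A3 stood at 0.407 ± 0.0262 of COL6A2 in control and 0.256 ± 0.0119 in shPROX1, without overlap. Relative to COL6A1 it was at 0.484 ± 0.032 and 0.246 ± 0.0245. COL6A5 (0 and 6 summed counts) and COL6A6 (0 and 1) were below the filter.

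**Figure D5:**
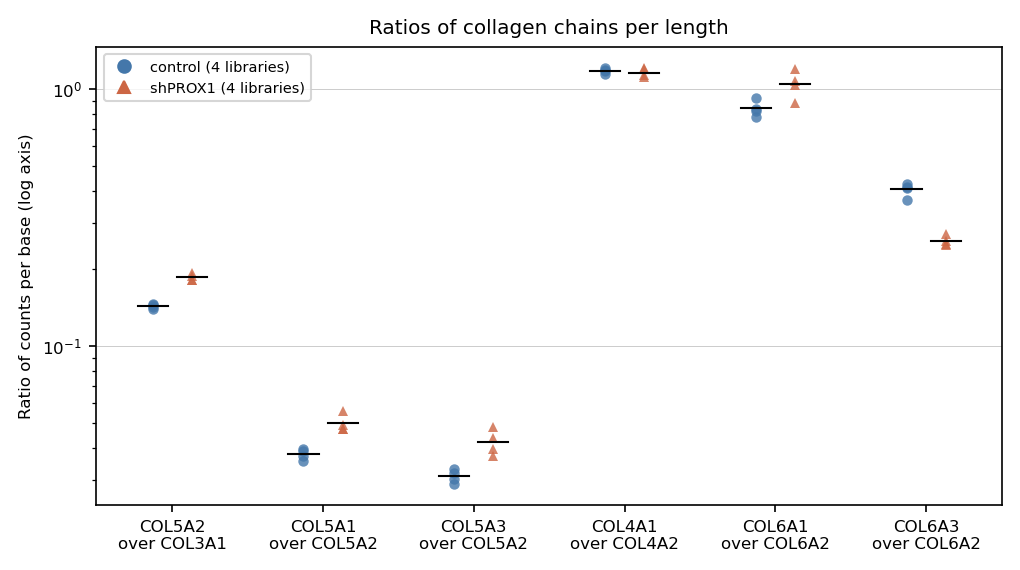
Ratios of 6 pairs of collagen chains per base of the longest protein-coding transcript, on a log axis, with 1 point per library (circles control, triangles shPROX1) and lines at the means. COL6A3 over COL6A2 is lower in all 4 shPROX1 libraries, and COL4A1 over COL4A2 overlaps between groups.

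COL7A1, which forms the anchoring fibrils below epithelia, rose by 99.9%. Its libraries were at 36.9, 36, 40.7 and 35.3 CPM in control and 65.5, 76.5, 77.4 and 78.4 CPM in shPROX1. The groups were far apart, with shPROX1 library 1 lowest of its group (log2 1.0 ± 0.08, edgeR adjusted p = 5.82e-10). COL8A1, a short-chain collagen of vessel walls and the eye, was at 9.45, 10.1, 6.51 and 8.32 CPM in control and 15.4, 15.4, 13.7 and 13 CPM in shPROX1, without overlap (log2 0.74 ± 0.16, edgeR adjusted p = 6.76e-04). COL26A1 was at 26.5, 23, 19.5 and 25.4 CPM in control and 10.2, 9.19, 14.5 and 9.92 CPM in shPROX1. It fell 2.17-fold without overlap, at a log2 difference of -1.12 ± 0.15 (edgeR adjusted p = 2.18e-06).

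COL15A1 and COL18A1, the multiplexins next to basement membranes, carry anti-angiogenic fragments at their ends. COL15A1 was at 13.2, 9.63, 12.1 and 15 CPM in control and 15.6, 15.6, 18.8 and 17.2 CPM in shPROX1, just separate (log2 0.41 ± 0.14, edgeR adjusted p = 0.0262). Its call was lost without control replicate 2 (adjusted p = 0.0975), control replicate 3 (0.0615), shPROX1 replicate 3 (0.0726) or shPROX1 replicate 4 (0.058), and with DESeq2 (0.0946). COL18A1 was at 128, 133, 122 and 115 CPM in control and 123, 122, 137 and 132 CPM in shPROX1. The groups overlapped, with a log2 difference of 0.05 and a 95% interval of -0.08 to 0.17. A share of 16.4% of the exon bases of COL18A1 also belongs to SLC19A1 on the opposite strand, and its value is uncertain for that reason. Smaller shares lie in antisense genes for COL5A3 (4%), COL15A1 (2.06%) and COL16A1 (1.26%), and no other collagen gene exceeded 4%. For COL25A1, a membrane collagen found in neurons and developing muscle, the libraries were at 201, 180, 178 and 184 CPM in control and 195, 189, 197 and 187 CPM in shPROX1. These overlapped, with a log2 difference of 0.05 and an interval of -0.06 to 0.15. Further members below the filter were COL8A2 (12 and 1 summed counts in control and shPROX1), COL13A1 (10 and 26), COL28A1 (5 and 14), COL17A1 (1 and 0), COL23A1 (1 and 0) and COL10A1, which had 0 counts in all 8 libraries.

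RefSeq promoter sequence (GRCh38.p14) was matched for 32 of the 44 collagen genes, 19 of the 27 tested. The 250 bases before the start were searched on both strands for 5 motifs. The CCAAT box (CCAAT) occurs in 32% of all 35116 promoters. The GC box (GGGCGG) occurs in 42.6% and the TATA box (TATAAA) in 10.7%. The AP-1 motif (TGANTCA) occurs in 6.57% and the TEAD motif (GGAATG) in 11.9%. No motif contains another. Counted by gene, with a match in any of its windows, a GC box was found for 9 of 9 matched collagen genes that rose, 1 of 3 that fell and 5 of 7 not called. It was found for 6 of 13 below the filter. The shares over all promoters count windows, not genes. No sequence was matched for COL2A1, COL3A1, COL9A3 and COL14A1, which fell, or for COL1A1, COL6A1 and COL8A1, which rose. Whether the groups differ was not tested. COL5A1, COL24A1, COL18A1 and COL11A2 have several windows each, and the windows of COL4A1 and COL4A2 overlap. The AP-1 motif was found for 0 of these 9, 3 and 7 genes and for 1 of 13 below the filter. In the same order of groups, the CCAAT box was found for 3 of 9, 0 of 3, 2 of 7 and 6 of 13 genes. The TATA box was found for 1 of 9, 0 of 3, 2 of 7 and 4 of 13. For the TEAD motif it was 1 of 9, 0 of 3, 1 of 7 and 1 of 13. These are matches of letters and say nothing of binding.

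The stretches before COL12A1, COL7A1 and COL26A1 are printed as examples of genes with large differences and no overlap between groups, 2 that rose and 1 that fell. All are 5′ to 3′ on the gene's strand with matches on either strand in capitals. COL12A1 (chr6:75206054-75206303, minus strand, 61.2% GC) holds 1 GC box, on the opposite strand, and 1 match to the TEAD motif. COL7A1 (chr3:48595330-48595579, minus strand, 60.8% GC) holds 3 GC boxes, 1 of them on the opposite strand. It also holds 1 match to the letters of the TATA box, at base 127 of 250 on the opposite strand. COL26A1 (chr7:101362625-101362819, plus strand, 64.1% GC) holds none of the searched letters in this window. Bases within an annotated exon were left out before printing, which shortened the COL26A1 stretch from 250 to 195 bases. The COL12A1 and COL7A1 stretches have all 250 bases.
COL12A1: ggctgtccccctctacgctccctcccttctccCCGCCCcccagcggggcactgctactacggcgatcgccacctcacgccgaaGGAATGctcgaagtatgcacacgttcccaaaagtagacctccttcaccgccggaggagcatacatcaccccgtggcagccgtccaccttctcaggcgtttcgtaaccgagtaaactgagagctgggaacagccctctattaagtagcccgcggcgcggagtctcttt
COL7A1: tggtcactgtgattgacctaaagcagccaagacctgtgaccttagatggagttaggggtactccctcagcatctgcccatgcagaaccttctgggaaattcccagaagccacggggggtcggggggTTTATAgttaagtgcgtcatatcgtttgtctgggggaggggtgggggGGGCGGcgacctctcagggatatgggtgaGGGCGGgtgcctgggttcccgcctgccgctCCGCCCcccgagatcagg
COL26A1: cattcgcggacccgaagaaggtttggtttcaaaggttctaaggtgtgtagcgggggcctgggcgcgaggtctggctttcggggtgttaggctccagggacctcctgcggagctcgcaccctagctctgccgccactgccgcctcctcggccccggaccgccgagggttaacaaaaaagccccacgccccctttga

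The genes that fold, export, cleave, link and receive collagen were read from 84 genes on 8 lists, of which 62 passed the filter. Of these, 25 rose and 12 fell, 59.7% called against the background of 35.2%. Over all tested genes 17.3% rose and 17.9% fell, the background for the counts of each list. Their median log2 difference was 0.08, against -0.01 over all tested genes. Their median level was 80.2 CPM against 34.5 CPM, and the part of depth in the count was not tested. The called share by list ran from 20% in degradation to 100% in cross-linking. In the folding and hydroxylation list, 9 of 18 tested genes rose and 0 fell. PLOD3, a lysyl hydroxylase, moved from 78.8 ± 4.79 to 116 ± 11.3 CPM (log2 0.56 ± 0.07), P4HA2, a prolyl hydroxylase subunit, from 39.4 ± 4.51 to 57.8 ± 2.58 CPM (0.55 ± 0.08) and PPIB, a prolyl isomerase, by 0.36 ± 0.05. P4HA1 was the most abundant uncalled gene of the list, at -0.06 (95% interval -0.16 to 0.04).

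Among cross-linking enzymes 5 of 6 tested genes rose and 1 fell, 100% called against 35.2% over all tested genes. LOX, a lysyl oxidase that cross-links fibrillar collagen, was at 6.85, 7.65, 9.4 and 5.68 CPM in control and 21.5, 19.4, 36.8 and 23.1 CPM in shPROX1. The groups were separate (log2 1.77 ± 0.20, edgeR adjusted p = 2.11e-07). LOXL2 rose by 0.94 ± 0.07 and LOXL1 by 0.58 ± 0.11. PXDN, a peroxidase that cross-links type IV collagen, fell (log2 -0.19), and is named here, after its value was seen, as the only tested gene of the list to fall.

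Of 6 tested collagen receptors 2 rose and 3 fell, 83.3% called against 35.2% over all tested genes. DDR2, a receptor tyrosine kinase that binds fibrillar collagen, was at 198, 210, 224 and 233 CPM in control and 155, 158, 174 and 155 CPM in shPROX1. The groups did not overlap (log2 -0.43 ± 0.06, edgeR adjusted p = 2.99e-06). DDR1 fell by 0.29 on the log2 scale, and ITGA10, an integrin chain, rose from 1.38 ± 0.229 to 3.31 ± 0.672 CPM (log2 1.25 ± 0.31). ITGA1 was not called, at 0.02 with an interval of -0.43 to 0.46.

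Procollagen export had 2 genes higher and 2 lower of 6, 66.7% called against 35.2% over all tested genes. SEC23A, a coat protein of the vesicles that leave the endoplasmic reticulum, fell from 263 ± 12.2 to 173 ± 10.9 CPM (log2 -0.60 ± 0.05), while MIA3 and KLHL12, which help load long procollagen, each rose by 0.23. The groups were separate for SEC23A and overlapped for MIA3 and KLHL12. SEC24D differed by 0.08 (95% interval -0.07 to 0.23). Of 4 tested propeptide cleavage genes, the protease BMP1 rose by 0.35 ± 0.10, its relative TLL2 fell (-0.25 ± 0.05), and ADAMTS14 was not called (0.34, interval 0.00 to 0.68). Among 6 tested fibril and matrix partners, 3 rose and 1 fell, 66.7% called against the same 35.2%. THBS1 rose by 0.76 ± 0.08, FN1 (fibronectin) by 0.28 ± 0.04, and the proteoglycan BGN fell (-0.64 ± 0.15). The groups of BGN overlapped, with control library 1 at 25.3 CPM and shPROX1 library 4 at 25.5 CPM. POSTN was not called (0.55, interval 0.01 to 1.10). All 11 basement membrane partners were tested, and 2 rose and 4 fell, 54.5% called against the same 35.2%. The laminin chain LAMC1 rose by 0.44 ± 0.03, LAMA5 (-0.70 ± 0.06) and LAMA4 (-0.52 ± 0.05) fell, and LAMA2 was at -0.06 (interval -0.17 to 0.05). In the degradation list 1 of 5 tested genes rose, the protease inhibitor TIMP1 (log2 0.37 ± 0.10), and 0 fell. That is 20% called, against 35.2% over all tested genes. MMP14, a membrane collagenase, was at -0.04 (interval -0.19 to 0.12).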

How the data were processed

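Total RNA of 8 libraries of RD cells was made into strand-specific libraries, per the labels' protocols. Each library has its own deposited table of unnormalized read counts by gene. FastQC, HISAT2, HTSeq and DESeq2, and GRCh38 (hg38) as the build, are listed in the submitters' processing notes; versions, roles, annotation and the strand setting of the counting are not given in the sources used here. Genes on opposite strands with common exon bases are therefore uncertain. The labels gave each library's group and number. The series design calls the replicates biological without naming separate cultures, so p-values measure the spread between these libraries.

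GENCODE 29 held 58039 of the 58302 identifiers and gave symbols, lengths and 1-based coordinates. Counts were tested in R 4.3.3 with edgeR 4.0.16 (TMM factors, filterByExpr by group, quasi-likelihood test, no covariates) and Benjamini-Hochberg adjustment at 0.05 over 12392 genes, with DESeq2 1.42.0 and limma 3.58.1 as alternatives, beside other scalings, other filters, each library left out and the replicate number as a block. The biological coefficient of variation was 6.41%. CPM used TMM-scaled library sizes, errors are SD over 4 libraries for levels and SE for log2 differences, and intervals are 95%. Each SE was the size of the log2 difference divided by the square root of the test's F statistic. Intervals used a t quantile and were not adjusted for the number of genes, so they can differ from the adjusted calls. Pairs of libraries within a group were further apart than counting alone gives. Chi-square divided by its degrees of freedom was 2.39 to 6.34 for control pairs and 1.19 to 2.16 for shPROX1 pairs. The shPROX1 libraries thus lay closer to counting error alone, and the reason was not tested. No library was dropped.

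The members, lists and tests were chosen with earlier results of these data known. All collagen genes are accounted for. Values in every library are printed for called members and for uncalled members with a mean of at least 20 CPM. From each further list up to 3 called genes of the largest difference (mean of at least 1 CPM) and the most abundant uncalled gene are named. The code of the fit was run on simulated counts with the same biological coefficient of variation for every gene. That run does not bear on the calls made here. One marker list is not reported here.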

Additional observations from a re-analysis of the deposited data

Results flagged for a closer look

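In 116 groups of 4 libraries (collagen and related genes with at least 20 summed counts), 8 had 1 library far from the other 3. Chance gives about 1 in 20 such groups. COL1A2 was at 20.5 CPM in shPROX1 replicate 4 and at 0.994 to 1.42 CPM in the others. Among control libraries, COL5A1 was at 80.8 CPM in replicate 4 (others 92.4 to 94.3), COL12A1 at 7.23 CPM in replicate 3 (5.18 to 5.48) and POSTN at 5.67 CPM in replicate 1 (3.21 to 3.62). In shPROX1 replicate 3, COL5A2 was at 1866 CPM (others 1946 to 1960), COL6A3 at 145 CPM (134 to 135) and DDR2 at 174 CPM (155 to 158). COL7A1 was at 65.5 CPM in shPROX1 replicate 1 (76.5 to 78.4). For COL5A1, COL12A1, COL6A3, COL7A1 and DDR2 the outlying library still lay outside the range of the other group.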

How the results depend on the processing

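Under 16 alternatives the number of collagen genes that rose was 8 to 15 and the number that fell 6 to 8, against 12 and 7. Leaving out 1 library gave 9 to 13 that rose. With the replicate number as a block, 11 rose and 7 fell; the numbers did not pair the libraries (same-number correlations -0.025, -0.0512, 0.0605 and -0.0723), and only COL4A1 (adjusted p = 0.0568) lost its call. Over all tested genes the calls ranged from 2986 to 4426, with 3239 in DESeq2. Of 432 member values, 403 kept their call and 0 reversed. Of the 19 called genes, 14 kept their call in every alternative; the exceptions were COL1A1 (DESeq2 adjusted p = 0.0545), COL4A1, COL4A2, COL15A1 and COL16A1 (0.109 with no filter), and these 5 also missed a threshold of 0.01. COL19A1 passed at 1 CPM in 4 libraries (0.0481) and with limma's voom (0.0393). With other filters, calls were gained by COL13A1 (1.44, adjusted p = 0.0324), COL9A1 (-1.17, 0.0392) and COL8A2 (-2.97, 0.0377). COL1A2 was also called by edgeR with no filter (adjusted p = 4.80e-10), at 1 CPM in 4 libraries (0.0421) and without shPROX1 replicate 2 (0.0201) or 3 (0.0189). It was not called without control replicate 2 (0.119) or 3 (0.128), or in DESeq2 (0.3). Its log2 difference was 1.71 to 2.45 in these fits, all of which held shPROX1 replicate 4 with its 87 counts. Where COL1A2 was called, the number of collagen genes that rose includes it. The all-exon length, chosen after seeing the data, put COL4A1 over COL4A2 in control at 1.57 and COL6A1 over COL6A2 at 1.04. It put COL6A3 in control at 0.347 of COL6A2 and 0.334 of COL6A1. Genes near the filter rest on few counts.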
